A study of Mus musculus with 14 samples.

Results

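The genes described here are the serum amyloid and acute phase genes of the mouse liver, namely Saa1, Saa2, Saa3, Saa4, Apcs, Crp, Orm1, Orm2, Orm3 and Hp. They were found by their symbols in the deposited gene table, which held all 10 among its 17552 genes. Liver RNA came from male Apoe-deficient mice and was sequenced as 7 control libraries and 7 erythrodiol libraries. The labels give the strain as C57BL/6 (C57BL/6J in the methods of the study) and an age of 8 weeks. All mice of both groups lacked apolipoprotein E and were fed a purified Western diet, which in the erythrodiol group also held this olive triterpene at a dose of 10 mg/kg. The labels give 8 weeks on the diets, whereas the methods of the study give a longer time. For the mice used the methods give an age similar to that in the labels. The age at which liver was taken is stated in neither, and the 8 weeks are not read as that age. Each library was made from a pool of a few mice. For each gene the table holds a single expected count for control and a single one for erythrodiol, each summed over 7 libraries, so that the gene values have no replicates and no test between groups could be made. All differences below compare 2 pooled sums, their intervals cover counting error only, and the spread between pools is unknown. The genes were selected on the summed counts of these same groups, with earlier results known, and their differences are therefore given as a description.

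Acute phase proteins are plasma proteins that the liver secretes in larger amounts when cytokines such as interleukin 6 and interleukin 1 reach the hepatocyte, through STAT3, C/EBP factors and NF-kB. Serum amyloid A1 and A2 are the strongly inducible members of their family and travel on high-density lipoproteins, whereas serum amyloid A4 is made constitutively. Serum amyloid A3 is made by liver and also by macrophages and adipocytes. The pentraxins Apcs (serum amyloid P component) and Crp (C-reactive protein) bind microbial and damaged surfaces. In the mouse, the former is the main acute phase pentraxin, and the latter responds weakly. The orosomucoids, encoded by Orm1 to Orm3, are glycoproteins that bind drugs and lipids, and haptoglobin, encoded by Hp, binds free hemoglobin.

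These genes lie in a few clusters of the genome. By RefSeq on GRCm38.p6, the 4 Saa genes lie within 42.3 kb of chromosome 7, from 46711998 to 46754313, with Saa1, Saa3 and Saa4 on the minus strand and Saa2 on the plus strand. The 3 Orm genes lie within 21.3 kb of chromosome 4, from 63344556 to 63365877, all on the plus strand. Crp begins at 172698056 and Apcs ends at 172895054 on chromosome 1, and Hp runs from 109575128 to 109579172 on chromosome 8. Saa1 and Saa2 have carried each other's names in older nomenclature, and here the names follow the gene identifiers 20208 and 20209 of the deposited table.

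To show the letters before the start of an inducible and of the constitutive Saa gene, of a pentraxin and of an orosomucoid, the 250 bases before the transcription start in the RefSeq promoter table are given for Saa2, Saa4, Apcs and Orm2. Capitals mark matches on either strand to TTGCNNAA, letters taken here for a C/EBP site, and in Apcs to TTCNNNGAA, letters taken for a STAT site.
Saa2, chr7:46751583-46751832, plus strand, GRCm38.p6: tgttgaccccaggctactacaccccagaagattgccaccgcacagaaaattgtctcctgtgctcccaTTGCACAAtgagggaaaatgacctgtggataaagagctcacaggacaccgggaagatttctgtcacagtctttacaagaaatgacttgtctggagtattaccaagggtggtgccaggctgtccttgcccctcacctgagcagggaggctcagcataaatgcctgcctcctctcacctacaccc
Saa4, chr7:46732604-46732853, minus strand, GRCm38.p6: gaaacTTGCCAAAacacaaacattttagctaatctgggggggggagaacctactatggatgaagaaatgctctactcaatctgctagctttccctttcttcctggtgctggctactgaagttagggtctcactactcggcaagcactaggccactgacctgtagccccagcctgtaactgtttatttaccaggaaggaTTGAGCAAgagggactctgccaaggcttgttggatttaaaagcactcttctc
Apcs, chr1:172895055-172895304, minus strand, GRCm38.p6: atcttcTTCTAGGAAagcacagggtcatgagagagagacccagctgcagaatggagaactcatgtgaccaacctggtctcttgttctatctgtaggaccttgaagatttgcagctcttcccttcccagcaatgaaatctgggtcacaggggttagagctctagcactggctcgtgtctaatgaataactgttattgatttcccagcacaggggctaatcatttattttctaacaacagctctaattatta
Orm2, chr4:63362199-63362448, plus strand, GRCm38.p6: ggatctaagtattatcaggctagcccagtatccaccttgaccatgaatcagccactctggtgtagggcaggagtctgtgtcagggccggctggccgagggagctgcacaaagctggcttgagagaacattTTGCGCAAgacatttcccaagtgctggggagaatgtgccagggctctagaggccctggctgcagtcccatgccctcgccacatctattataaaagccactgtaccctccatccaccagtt
The windows of Saa1, Saa3 and Orm3 are not printed, since the start used by that table lies inside the RefSeq gene and 201, 250 and 89 of their bases fall within it. Over the 250 bases Saa1 and Saa2 were 94.8% identical and carried the same match, TTGCACAA, at 182 and 183 bases before the start. Orm2 and Orm3 were 85.9% identical, with TTGCGCAA and TTGCACAA at 120 and 121 bases before the start. Saa3 held a match on the opposite strand, and Saa4, 49.5% identical to Saa1 over the alignment, held 2. The letters were found in 6 of the 8 genes of the group with an entry in that table, and in 9.56% of 32851 promoter windows of the same length. Of the other letters searched on both strands, TTCNNNGAA for STAT occurred in Apcs alone of the 8 and in 7.02% of all windows. For NF-kB, the letters GGG, any 2 bases and TTTCC occurred in 0 of the 8 and in 1.41% of all windows. A match is a description of letters and no evidence of binding, and a window without a match says only that these letters are not in it.

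The transcripts of the pairs were also alike, which bears on how their reads can be told apart. Saa1 and Saa2 transcripts of the GENCODE annotation were 93.9% identical and those of Orm1 and Orm2 91.0%. No stretch of 100 bases, the length of a read, was shared between the protein-coding transcripts of 8 of the genes and those of any other gene. The exceptions, Orm1 and Orm2, shared 6.95% of such stretches with each other. Counts of Saa1, Saa2, Orm1 and Orm2 were not whole numbers in the control group, as happens when reads are divided between genes, and the family sums are therefore given beside the single genes.

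Control libraries held from 34856340 to 55244294 clean reads and erythrodiol libraries from 47669656 to 48058606. Between 64.3% and 81.4% of these mapped to genes in control and between 73.0% and 76.1% in erythrodiol libraries. The gene counts summed to 122889032 in control and 124686047 in erythrodiol, and each group was scaled by its sum. Apoe itself had 9403 counts in control and 8293 with erythrodiol, and gene counts do not tell whether its transcript is intact. Of the genes with at least 100 counts in both groups together, 13291 in number, the median log2 ratio of erythrodiol to control was 0.16, so that a gene without a shift relative to the others lies slightly above 0. The ratio also went with the length of the gene. Genes under 800 bases had a median log2 ratio of -0.35 and 31.6% of them were at least 1.5-fold lower with erythrodiol, against a median of 0.25 and 0.578% for genes over 3000 bases. Most acute phase genes are short, so each was also set beside the 500 other genes nearest to it in length.

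With erythrodiol, 9 of the 10 acute phase genes had a lower level than with the control diet, the exception being Saa4, whose sign turned with the scaling, and 7 of them were at least 1.5-fold lower, with 0 at least 1.5-fold higher. Among all 13291 genes, 3.14% were at least 1.5-fold lower and 2.55% at least 1.5-fold higher, together 5.69%. The lowest ratios were those of Saa1, Saa2 and Apcs, the 3 genes that were at least 2-fold lower, a size found in 0.549% of all genes, and in 0.767% counting either direction. These counts rest on the contrast that helped to choose the genes, and nothing is read from them. The median log2 ratio of the 10 genes was -0.87, and relative to genes of like length it was -0.58. In that comparison all 10 lay below the median of their 500 neighbours, 6 lay below the level that cuts off the lowest 10%, and 5 remained at least 1.5-fold lower. The share of all genes past 1.5-fold relative to genes of like length was not computed, so the count of 5 has no such share beside it. The gene just inside the 1.5-fold limit was Orm1 at a log2 ratio of -0.70, and the nearest outside was Hp at -0.43. Together the 10 genes had 6175 CPM, that is, counts scaled to a group total of 1000000, in control and 4362 with erythrodiol.

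**Figure D1:**
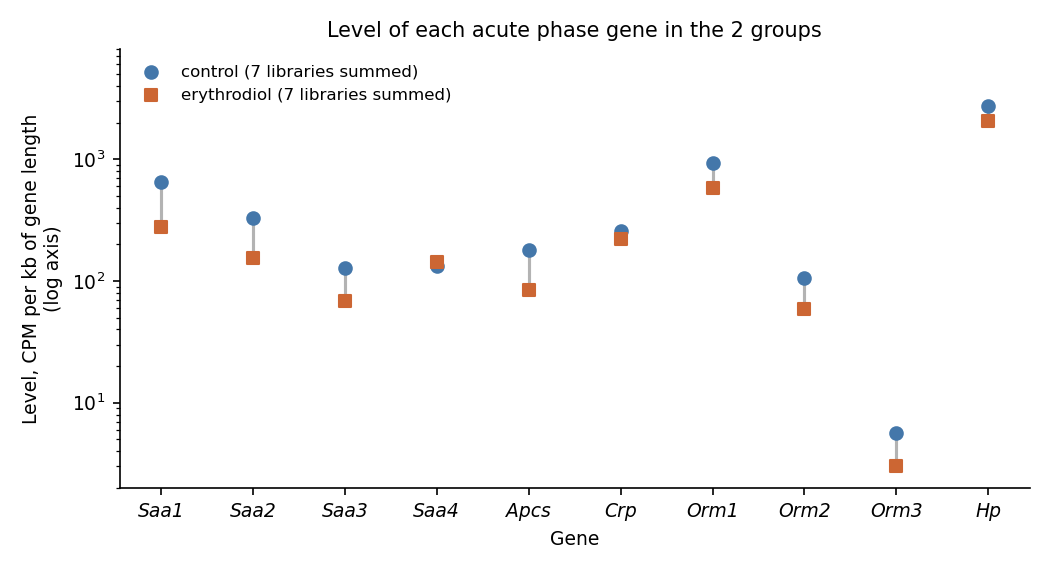
Level of each gene, in CPM per kb of gene length, on a log axis, for the summed control libraries (circles) and the summed erythrodiol libraries (squares). Saa4 is the only gene whose erythrodiol point lies above its control point under this scaling, and below it under others; Hp is the highest in both groups and Orm3 the lowest.

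Hp was the most abundant of the genes in both groups, at 2756 CPM per kb in control and 2046 with erythrodiol. Orm1 followed with 939 and 580, and Saa1 with 651 and 277, in the same units. Saa2 was the next in control, at 332, and Crp the next with erythrodiol, at 221. At the low end stood Orm3, with 5.63 and 2.99. The plot of levels by group shows this order, in which Saa2 and Crp stood in opposite order in the groups, as did Apcs and Saa4. Without values per library it cannot be said which neighbours in the order differ beyond the spread between pools.

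Among the serum amyloid A genes, Saa1 was 2.35-fold lower with erythrodiol. It had 52221 counts in control and 22566 with erythrodiol, which on the log2 scale is -1.23 (counting interval -1.25 to -1.21). It ranked 39 from the lowest of the 13291 ratios. Of its 500 neighbours in length, from 452 to 856 bases, 11 had a lower ratio, and the difference from their median was -0.93 on the log2 scale. Saa2, its nearest relative, had 25386 and 12039 counts and was 2.14-fold lower, with an interval of 2.09 to 2.19. Of the neighbours of Saa2, 16 had a lower ratio, and the difference from their median was -0.78.

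Saa3 had fewer counts, 8294 in control and 4529 with erythrodiol, and was 1.86-fold lower, with an interval of 1.79 to 1.93. Its transcript is the shortest of the 10 in the table, at 531 bases, and 29.8% of its neighbours in length were themselves at least 1.5-fold lower. Relative to their median its log2 ratio was -0.56. The constitutive Saa4 went apart from the other 3. It had 33931 counts in control and 36716 in the erythrodiol group, 1.07 times the level (interval 1.05 to 1.08). Relative to genes of its own length, near 2067 bases, its log2 ratio was -0.02, and relative to all genes -0.07, so that the sign of this small difference turned with the scaling. Near the middle of its neighbours, it had 237 of 500 below it.

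The sum of the 4 Saa genes went from 119832 to 75850 counts, a 1.60-fold lower level with an interval of 1.59 to 1.62. Without Saa4 the sum was 2.23-fold lower, from 85901 to 39134 counts. The family thus differed in its make-up, as the plot of family shares shows. Of the Saa counts per kb, Saa1 made up 52.4% in control and 43.1% with erythrodiol, and Saa4 10.7% and 22.2%, while Saa3 had 10.2% and 10.6%. In plain counts Saa4 went from 28.3% to 48.4% of the family and was its most counted gene with erythrodiol. The difference of the log2 ratios of Saa1 and Saa4, which does not depend on how the groups are scaled, was -1.32, with a counting interval of -1.36 to -1.29. This difference and the shares are not corrected for the trend of the ratio with gene length, and these genes have 653 and 2067 bases. Relative to genes of like length, Saa1 stood at -0.93 and Saa4 at -0.02 on the log2 scale. Saa1 and Saa2 differed by -0.13, with an interval of -0.17 to -0.10 that does not hold the error of dividing their reads. Saa1 had 2.06 times the counts of Saa2 in control and 1.87 times with erythrodiol.

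**Figure D2:**
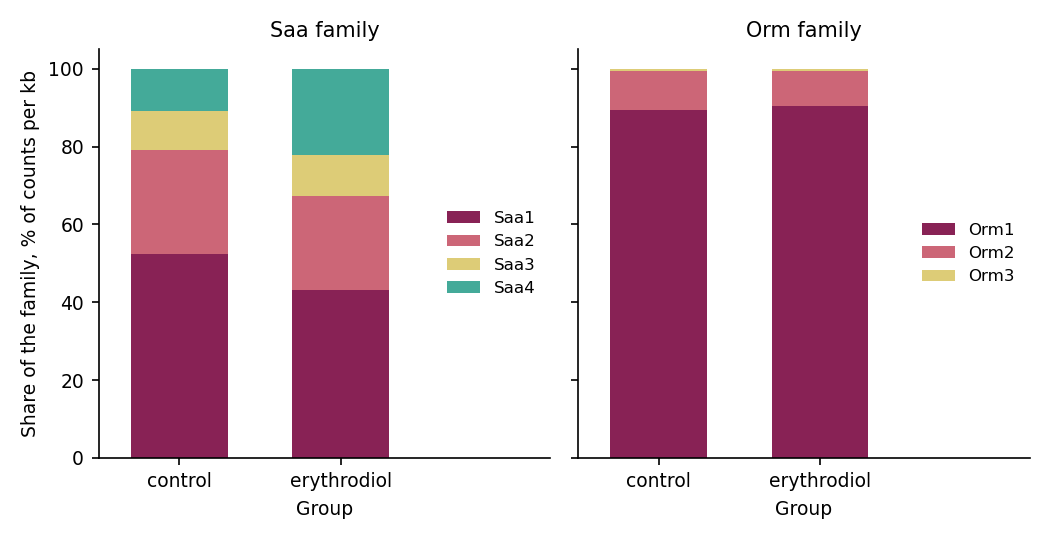
Share of each gene in its family, in percent of the family's counts per kb, in the summed control and summed erythrodiol libraries. In the Saa family Saa4 goes from 10.7% to 22.2%, whereas in the Orm family Orm1 stays near 90%, at 89.4% and 90.4%. The shares are not corrected for the trend of the ratio with gene length.

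The pair of pentraxins also went apart. Apcs had 22167 counts in control and 10566 with erythrodiol and was 2.13-fold lower, with an interval of 2.08 to 2.18. Of 500 genes of like length, between 899 and 1124 bases, 4 had a lower ratio, the fewest for any of the 10 genes. Relative to the median of these neighbours, the log2 ratio of Apcs was -0.98, the lowest of the 10. Crp had 53855 and 46812 counts, a 1.17-fold lower level with an interval of 1.15 to 1.18. Its log2 ratio of -0.22 was -0.29 relative to genes of like length, and 83 of the 500 were lower still. Apcs thus differed from Crp by -0.87 on the log2 scale, with a counting interval of -0.90 to -0.83, and went from 40.9% to 27.5% of the counts per kb of both. Neither comparison is corrected for the trend of the ratio with gene length, and the genes have 1012 and 1698 bases.

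In contrast to the Saa genes, the orosomucoids were all lower, from 1.62-fold for Orm1 to 1.88-fold for Orm3. Orm1, which held 89.2% of the family's counts in control and 90.2% with erythrodiol, had 89912 and 56345 counts and was 1.62-fold lower, with an interval of 1.60 to 1.64. Orm2 had 10014 and 5674 counts and was 1.79-fold lower. The rarest, Orm3, had 853.0 and 460.0 counts and was 1.88-fold lower, with a wider interval of 1.68 to 2.11. The log2 ratios of Orm2 and Orm3 differed by 0.07, with an interval of -0.10 to 0.24 that includes 0. For Orm1 and Orm2 the difference was 0.15, with an interval of 0.10 to 0.19, and the reads these genes share are not covered by it. Orm1 and Orm3 differed by 0.22, with an interval of 0.05 to 0.38 that excludes 0.

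The Orm sum was 1.64-fold lower, from 100779 to 62479 counts. Genes of this length had a median log2 ratio of -0.23, and relative to it the sum stood at -0.48, with 65 of 500 genes lower. Relative to genes near their own deposited lengths, Orm1 was at -0.46, Orm2 at -0.61 and Orm3 at -0.90. The deposited length of Orm3 is 1232 bases, whereas its GENCODE coding transcript has 773 bases and those of Orm1 and Orm2 have 775. Genes near 1232 bases had a median log2 ratio of -0.02, against -0.23 near the lengths of Orm1 and Orm2. The value of -0.90 thus rests on the deposited length of Orm3 and is not on the same footing as those of Orm1 and Orm2. Among the coding transcripts assembled by the authors, 1 lay at Orm3 and 0 at the other genes. It has 6 exons and a first exon of 1034 bases, from 63355280 to 63356313 on chromosome 4, which begins 789 bases before the RefSeq gene.

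Hp carried most of the counts of the group, 462244 in control and 348233 with erythrodiol. It was 1.35-fold lower, with an interval of 1.34 to 1.35, a log2 ratio of -0.43. Relative to genes of like length, between 1284 and 1446 bases, this was -0.42, and 64 of the 500 were lower. A ratio nearer to 1 than that of Saa1 still made a larger difference in counts. Hp had 3761 CPM in control and 2793 with erythrodiol, and Saa1 425 and 181.

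**Figure D3:**
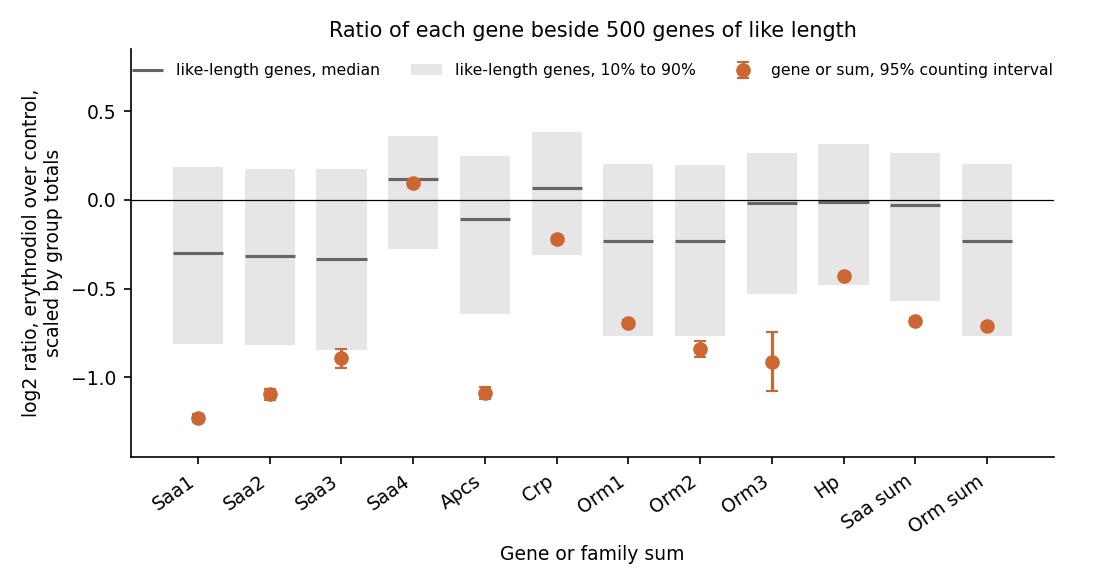
Log2 ratio of erythrodiol to control for each gene and for the Saa and Orm sums, scaled by group totals, with 95% counting intervals (points and bars), beside the median (line) and the span from 10% to 90% (grey) of the 500 genes of like length. Saa1, Saa2, Saa3, Apcs, Orm2 and Orm3 lie below the grey span, and Saa4 lies next to the median.

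**Figure D4:**
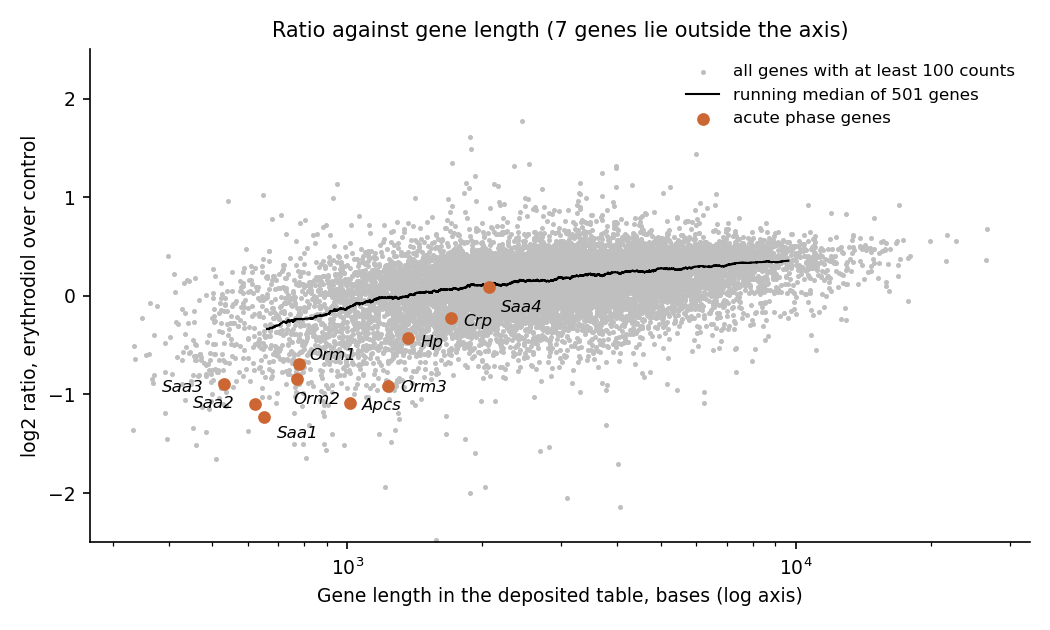
Log2 ratio of erythrodiol to control against gene length in bases, on a log axis, for the genes with at least 100 counts (grey), with a running median (line) and the 10 acute phase genes (orange). The line climbs with length, and the 10 genes lie below it, with Saa4 next to it; 7 genes lie outside the axis.

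None of the 16 differential splicing events that the authors kept after filtering lay in any of the 10 genes.

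Upstream of these genes, few inducing cytokines could be measured. Of 12 on the list, 5 had at least 100 counts, and Il6, the main inducer in hepatocytes, had 7 and 3 counts over the 7 libraries of each group. Il1b had 563 counts in control and 338 with erythrodiol and was 1.69-fold lower, with an interval of 1.47 to 1.94. Il1a was within 1.5-fold, with a log2 ratio of -0.25, as were Tnf and the more abundant Tgfb1. The 11 cytokine receptors had a median log2 ratio of 0.22, against 0.16 for all genes, and 4 lay below that value. Relative to genes of like length their median was 0.03. Of the 11 receptors, Il11ra1 was 1.55-fold lower and Lifr, the receptor of leukemia inhibitory factor, 1.52-fold higher. Against genes of like length, Il11ra1 stood at -0.70 and Lifr at 0.35 on the log2 scale. The counts of both were not whole numbers in the control group, so that reads may be shared with other genes. Il6ra, the receptor of interleukin 6, had a log2 ratio of 0.53, and its partner Il6st 0.44. Relative to genes of like length these were 0.33 and 0.17.

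All 22 genes of the signal and transcription list were within 1.5-fold, a limit that 5.69% of all genes passed. Their median log2 ratio was 0.17, or -0.05 relative to genes of like length. Stat3, which carries the signal of interleukin 6, stood at 0.37. At the lower end were Socs3 at -0.33 and Cebpd at -0.31, and the activity of STAT3 was not tested. Against genes of like length, Stat3 stood at 0.12, Socs3 at -0.48 and Cebpd at -0.42. Cebpa and Hnf4a had the highest levels of the list per kb, with log2 ratios of -0.11 and 0.21.

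For the other positive acute phase proteins the values spread to both sides of 0. The list also holds proteins that are not secreted into plasma, such as Lpin1 and the metallothioneins. Of 34 with at least 100 counts, 5 were at least 1.5-fold lower and 1 higher, where 3.14% and 2.55% of all genes were. The median log2 ratio was -0.02, or -0.18 relative to genes of like length. In the latter comparison 26 lay below the median of their neighbours, 5 were at least 1.5-fold lower and 0 at least 1.5-fold higher. The share of all genes past the limit in that comparison was not computed. Fgl1, a secreted protein related to fibrinogen, was 2.04-fold lower, with 55990 and 27899 counts. Mbl2, a mannose-binding lectin of the complement system, was 1.67-fold lower. Hpx, hemopexin, which binds free heme as haptoglobin binds hemoglobin, went from 946243 to 601396 counts and was 1.60-fold lower. The metallothioneins Mt2 and Mt1 were 1.90-fold and 1.54-fold lower, though at lengths of 556 and 584 bases. Relative to genes of like length, Hpx stood at -0.71, Mt2 at -0.59 and Mt1 at -0.29 on the log2 scale. Fgb, a fibrinogen chain and with Hpx the most abundant of the list, had a log2 ratio of -0.17. Lpin1, a phosphatidate phosphatase, was 1.61-fold higher. Against genes of like length, Fgb stood at -0.23 and Lpin1 at 0.43 on the log2 scale.

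Among the genes of this list within 1.5-fold were the complement component C3, at a log2 ratio of 0.35, and the fibronectin gene Fn1, at 0.34. Lbp, which binds bacterial lipopolysaccharide, was at 0.06. Against genes of like length, C3 stood at 0.11, Fn1 at 0.0024 and Lbp at -0.099. Serpina3n and Lcn2, markers of the acute phase in mouse liver, had log2 ratios of -0.03 and -0.45, and Hamp, which encodes hepcidin, 0.22. On the like-length footing Serpina3n was at -0.15, Lcn2 at -0.25 and Hamp at 0.55. Among 19 proteins that decline in the acute phase, the median log2 ratio was 0.15. Of these, 0 were at least 1.5-fold lower and 1 higher, where 3.14% and 2.55% of all genes were. That gene was Cyp7a1, the rate-limiting enzyme of bile acid synthesis, 2.38-fold higher. Relative to genes of like length, the median of the 19 was 0.14 and Cyp7a1 stood at 1.04. Serpina7, at -0.63, was the only 1 at least 1.5-fold lower in that comparison. Alb and Apoa2 were the most abundant of that list, at log2 ratios of -0.06 and -0.07.

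Of 16 receptors and clearance factors for these proteins, 3 were at least 1.5-fold lower and 0 higher, where 3.14% and 2.55% of all genes were. Their median log2 ratio was -0.20, or -0.26 relative to genes of like length. In the latter comparison 13 lay below the median of their neighbours and 4 were at least 1.5-fold lower. The share of all genes past that limit was not computed for it. Fpr2, a formyl peptide receptor that binds serum amyloid A, had 278 and 124 counts and was 2.27-fold lower. Cd36, a scavenger receptor, was 1.66-fold lower and Fpr1 1.52-fold lower. Cd163, the receptor of haptoglobin bound to hemoglobin, had 211 and 321 counts, a log2 ratio of 0.58. Asgr1 and Asgr2, hepatocyte receptors that clear glycoproteins and the most abundant of the list, stood at -0.30 and 0.22. Serum amyloid A travels on high-density lipoproteins. Of 13 genes listed under the remodelling of these particles, 0 were past 1.5-fold in either direction, against 5.69% of all genes. Their median was 0.08. Apoc1 and Selenop, the most abundant of the list, stood at 0.13 and 0.23. Selenop encodes a plasma selenium carrier and is not itself a lipoprotein remodelling gene.

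**Figure D5:**
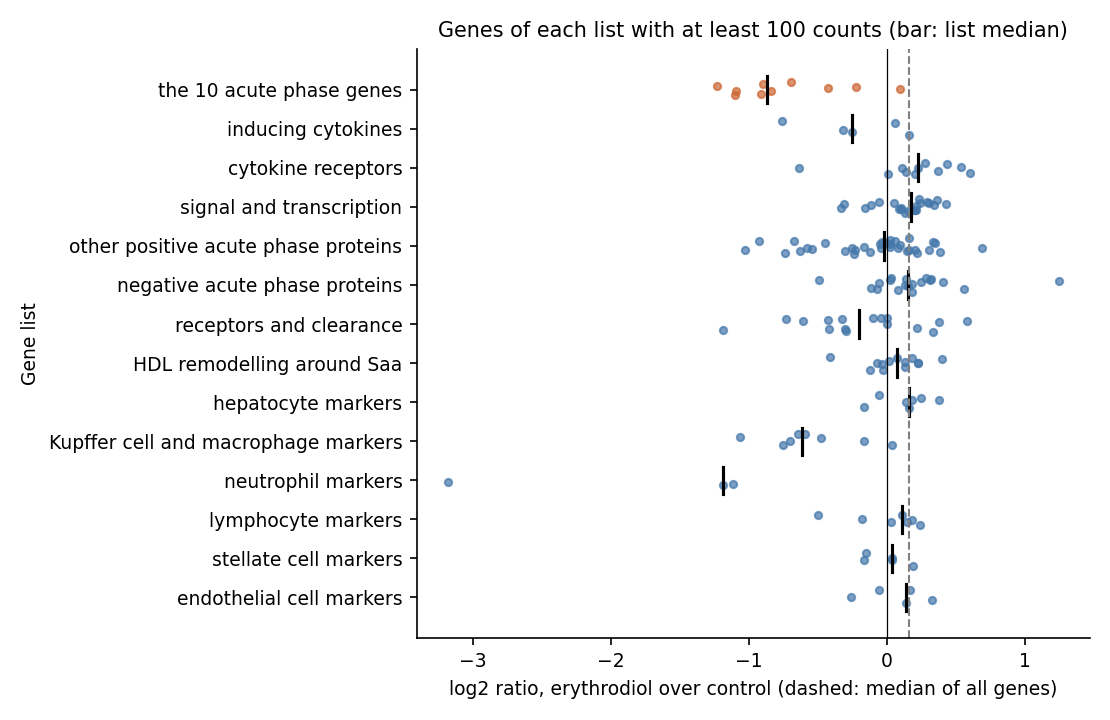
Log2 ratio of erythrodiol to control for each gene with at least 100 counts, by gene list, with the list median (bar), 0 (solid line) and the median of all genes (dashed line). The 10 acute phase genes have a median of -0.87, the Kupffer cell and macrophage markers -0.62, the hepatocyte markers 0.16.

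Markers of several liver cell types were set beside these values, since whole liver was sequenced. In bulk RNA, fewer cells of a type and less RNA per cell cannot be told apart. The 7 hepatocyte markers were all within 1.5-fold, a limit that 5.69% of all genes passed. They had a median log2 ratio of 0.16, or 0.19 relative to genes of like length. Their summed level was 108400 CPM in control and 108147 with erythrodiol. Most Kupffer cell and macrophage markers had a lower level with erythrodiol. Whether they vary with the acute phase genes between pools cannot be seen from group sums. Of 8 markers, 5 were at least 1.5-fold lower, against 3.14% of all genes, and the summed level of the 8 went from 1004 to 661 CPM. Marco, a scavenger receptor, was 2.10-fold lower, Adgre1 1.68-fold, Cd5l 1.63-fold, Clec4f 1.57-fold and Vsig4 1.51-fold, whereas Cd68 had a log2 ratio of 0.04 and Csf1r -0.17. Neutrophil markers were few but also lower. S100a8 had 411 and 183 counts, S100a9 702 and 329 and Prtn3 367 and 41, and the other 6 of 9 had between 3 and 59 counts in a group.

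The part of these cells in the difference of Saa3, Il1b, Fpr2 and the other genes was not tested. Adipocyte markers were near 0, with 28 and 25 counts of Adipoq and 2 and 1 of Lep. The exception was Cfd, with 416 and 160 counts. The 7 lymphocyte, 5 stellate cell and 5 endothelial markers were all within 1.5-fold, a limit that 5.69% of all genes passed. Their median log2 ratios were 0.11, 0.04 and 0.14, and relative to genes of like length 0.04, -0.26 and -0.17. In the latter comparison 3, 5 and 4 of them lay below the median of their neighbours. The lymphocyte marker Ms4a1 stood there at -0.61. Of 5 common reference genes, Ppib was just past 1.5-fold lower, at a log2 ratio of -0.59, and Tbp stood at 0.31, Gapdh at 0.14 and Actb at 0.09.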

How the data were processed

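Poly-A RNA of liver pools was sequenced with paired reads of 100 bases. The authors mapped clean reads with Bowtie2 to reference transcripts merged with assembled coding ones and counted them with RSEM. The authors deposited an expected count per gene, summed over the 7 libraries of a group and not normalized, and per library a count of clean reads and the percent mapped to genes, as of all and of uniquely placed reads. Columns with the authors' own ratios, p-values and q-values were not used. Versions of these tools are not given in the sources used here.

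Gene lengths in bases, exon coordinates of assembled transcripts and gene identifiers of splicing events were taken from the deposited files as they are (other units). Groups came from the labels. Each group was scaled by its total. Intervals are exact conditional 95% (Clopper-Pearson) intervals of rounded counts, or normal ones on the log scale for the difference between genes. Genes needed at least 100 counts in both groups together, and like-length genes were the 500 nearest by deposited length. The members and lists were chosen with earlier results of these data known. Named are the members, the genes of a list past 1.5-fold (at most 5) and the 2 of highest level per kb; further genes were chosen after their values were seen. Ratios, intervals and the length comparison were tested on simulated data. Computations used scipy 1.17.1, biopython 1.88, pandas 2.3.3, matplotlib 3.10.9 and numpy 2.4.6 under Python 3.11.15, and, for a TMM factor without a model, edgeR 4.0.16 under R 4.3.3. Alternatives were 4 other scalings, like-length comparisons, a pseudocount, other sums, a 2-fold limit and no minimum count. Sequences are from RefSeq (GRCm38.p6) and GENCODE M21; 8 of 10 genes matched the promoter table.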

Additional observations from a re-analysis of the deposited data

Results flagged for a closer look

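Control replicate 3 had 64.33% of its clean reads mapped to genes, the lowest of the 7 control libraries, and the next was 74.39%. The gap was 0.588 of the range of the group, above the critical value of 0.568. Of 6 groups of values checked in this way, it was the only 1, and chance flags about 1 in 20. What it contributes to the counts of the acute phase genes is not known, since those counts were summed over the libraries before deposit.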

How the results depend on the processing

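The log2 ratio of Saa4, 0.09, reversed to -0.0057 without the 50 most counted genes in the totals, to -0.069 when centred on the median gene, to -0.064 with the TMM factor, and to -0.023, -0.039 and -0.0081 relative to 500, 200 and, without a minimum of counts, 500 genes of like length. The other 9 genes kept their sign under all 8 alternatives. The Saa sum, -0.68, became -0.78, -0.84, -0.84 and -0.54 without the 50 genes, centred on the median, with the TMM factor and scaled to Ppib and Tbp, -0.65 and -0.66 relative to 500 genes of like length with and without the minimum, and -1.16 without Saa4. The Orm sum, -0.71, became -0.81, -0.87, -0.87 and -0.57 under the same 4 scalings, -0.48, -0.44 and -0.51 relative to 500, 200 and, without the minimum, 500 genes of like length, and -0.70 for Orm1 alone. Of the 7 genes past 1.5-fold, 3 were past 2-fold, and across scalings and the like-length comparison the number lay between 5 and 8. No paired analysis was possible because the gene values come from no test and hold no libraries, and for the same reason no library could be left out. Among the 10 genes the counting interval was widest for Orm3, and Il6, with 7 and 3 counts, was too shallow for a ratio.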
